A study of Mus musculus with 6 samples.

Results

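The mature products of the hairpins Mir675 and Mir483 were followed in small RNA libraries of mouse heart cardiomyocytes. Every mature miRNA row whose name, without its arm suffix, was miR-675 or miR-483 was taken, which gave 4 of the 1974 mature miRNAs in the count table: miR-675-5p, miR-675-3p, miR-483-5p and miR-483-3p. The libraries came from C57BL/6 mice, either homozygous for loss of the long non-coding RNA lncSync (genotype LncSync-/-, called knockout here) or wild type. There were 2 knockout and 2 wild-type libraries from adults, and 1 knockout and 1 wild-type library from embryos at e13.5, a stage named in days after conception. The labels give neither the way the null allele was made nor the number of animals in a library. Since nothing says that replicates came from separate animals, p-values cover only library-to-library spread, possibly technical.

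H19 and Igf2 are neighbouring imprinted genes on distal mouse chromosome 7. H19 is a non-coding RNA made from the maternal allele, and miR-675 is cut from its transcript. Igf2 encodes insulin-like growth factor 2, a fetal growth factor made from the paternal allele, and carries miR-483 in an intron. Both genes are highly active in embryonic mesoderm and largely shut down after birth in mouse tissues. In mouse placenta miR-675 restrains growth and acts on the Igf1r mRNA, and in human cells miR-483 is co-expressed with IGF2.

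In mm10 coordinates, Mir675 occupies chr7:142577064-142577147 and Mir483 chr7:142654924-142654996, both on the minus strand and 77776 bp apart. In the GENCODE M21 annotation Mir675 lies inside exon 1 of the H19 transcripts H19-202 and H19-205, exon 2 of H19-206 and intron 1 of H19-204, and outside the other H19 transcripts. Mir483 lies in an intron of Igf2-201 and of most other Igf2 transcripts. The 2 hairpins are shown with the mature arms in capitals, 5′ to 3′, because the later results turn on how reads divide between the arms (RefSeq, build GRCm38.p6).
Mir675: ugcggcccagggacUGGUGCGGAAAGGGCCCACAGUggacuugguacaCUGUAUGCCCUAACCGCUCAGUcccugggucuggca
Mir483: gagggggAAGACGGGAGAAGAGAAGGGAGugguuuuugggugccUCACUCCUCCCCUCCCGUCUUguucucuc

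The 4 mature arms follow with the seed in capitals, that is bases 2 to 8 counted from the 5′ end, which do most of the pairing with target mRNAs.
miR-675-5p: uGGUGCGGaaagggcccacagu
miR-675-3p: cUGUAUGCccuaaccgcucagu
miR-483-5p: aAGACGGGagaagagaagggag
miR-483-3p: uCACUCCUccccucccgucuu
All 4 arms matched an entry of the RefSeq miRNA table. The 4 seeds differ from each other, and 0 other mature mouse miRNAs of that table share any of them. Each arm was therefore its own seed family here.

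Mature counts summed to between 14347091 and 17933518 in the adult libraries, 2671957 in the e13.5 knockout and 8944552 in the e13.5 wild-type library. Levels are given as CPM, that is counts per 1000000 mature counts of the library. A count of 0 allows up to 3 counts, which is 0.167 to 0.209 CPM in an adult library, 1.12 CPM in the e13.5 knockout and 0.335 CPM in the e13.5 wild type. All counting intervals are exact at 95% and cover counting error only. Cardiomyocyte markers, 13 arms of the miR-1a, miR-133, miR-208 and miR-499 families of which 8 to 12 were detected per library, held 28.2 to 39.5% of counts in adults, 9.86% in the e13.5 knockout and 14.6% in the e13.5 wild type. Smooth muscle and fibroblast markers held 7.48 to 11.8% in adults, 21.5% in the e13.5 knockout and 35.6% in the e13.5 wild type. The libraries thus carried the labelled cell type's miRNAs together with miRNAs listed as markers of smooth muscle and fibroblasts. Whether such cells were present was not tested.

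Both hairpins were embryonic. Products of miR-675 and miR-483 stood at up to 575 CPM at e13.5 and at or below 2.80 CPM in every adult library, in both genotypes. All 4 arms were lower in adults than at e13.5 in the test across stages, by log2 folds between 6.74 and 9.52. In adults miR-675 was at or under the limit of detection, whereas miR-483-3p had counts in every library.

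miR-675-5p had 0 counts in the 4 adult libraries, against 66 counts (24.7 CPM, 95% counting interval 19.1 to 31.4) in the e13.5 knockout and 41 counts (4.58 CPM, 3.29 to 6.22) in the e13.5 wild type. It was at least 205-fold lower in adults than at e13.5 on library totals, with the floor of 3 counts taken over all 4 adult libraries. Within genotypes that floor gave at least 263-fold in knockouts and 53.1-fold in wild types. miR-675-3p had 3 counts in adult wild-type replicate 1 and 0 in the other adult libraries, against 11 counts (4.12 CPM, 2.06 to 7.37) in the e13.5 knockout and 118 counts (13.2 CPM, 10.9 to 15.8) in the e13.5 wild type. With counts summed by stage, its e13.5 to adult CPM ratio was 247 (82.6 to 1213). No adult library came within the counting interval of an e13.5 library for either arm.

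miR-483-5p had 0 counts in both adult knockouts and 7 and 17 counts (0.390 and 1.01 CPM) in the adult wild types, against 922 counts (345 CPM) in the e13.5 knockout and 2229 counts (249 CPM) in the e13.5 wild type. Its e13.5 to adult ratio over summed counts was 754 (506 to 1178). miR-483-3p had 1.46 and 0.625 CPM in the adult knockouts and 2.57 and 2.80 CPM in the adult wild types, against 575 CPM in the e13.5 knockout and 207 CPM in the e13.5 wild type. Its ratio was 156 (130 to 188). Within genotypes the e13.5 to adult ratio of miR-483-3p was 574 (405 to 843) in knockouts and 77.4 (62.8 to 96.4) in wild types, and miR-483-5p was at least 3676-fold higher at e13.5 in knockouts and 361-fold (242 to 564) in wild types. Both genotypes showed the same direction at different sizes, and the test of that difference is given with the interaction. At e13.5 miR-483-3p ranked 90th by count among 810 miRNAs detected in the knockout and 119th among 912 in the wild type, and miR-483-5p ranked 106th and 108th in the same libraries. The ranks there were 269 and 378 for miR-675-5p, and 445 and 300 for miR-675-3p, so the miR-483 arms stood above the miR-675 arms in both.

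**Figure D1:**
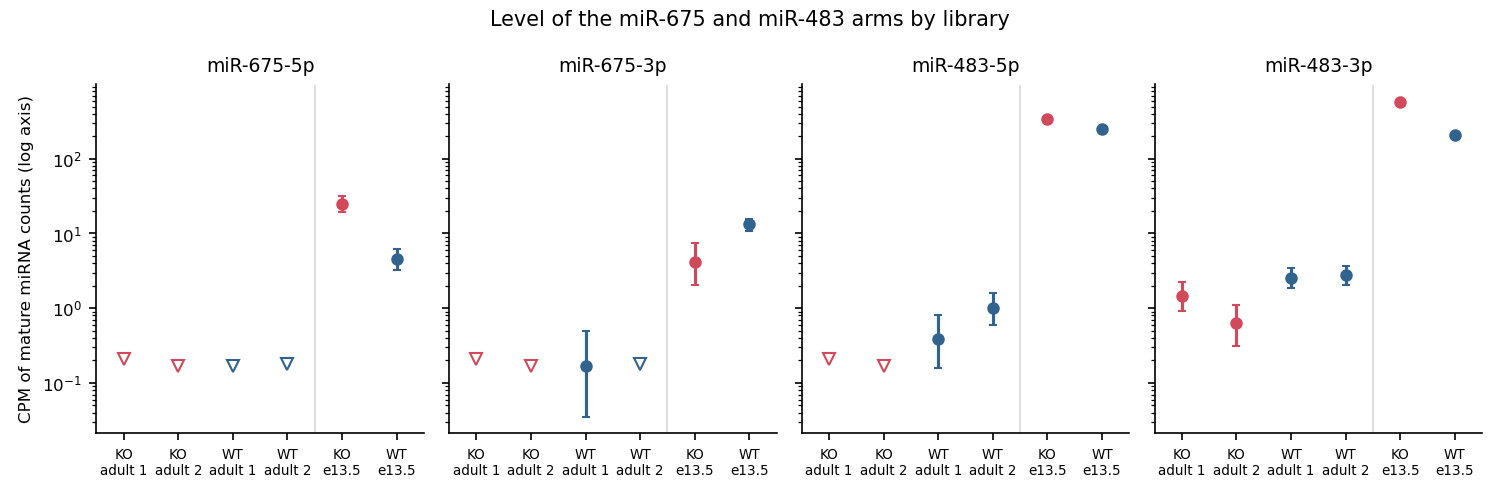
Level of each arm in each library, in CPM on a log axis, with adults left of e13.5 and knockout (red) left of wild type (blue). Points carry exact 95% counting intervals, and open triangles mark 0 counts, drawn at the floor of 3 counts. The e13.5 points of miR-483-5p lie at 345 and 249 CPM and no adult library exceeds 1.01 CPM.

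The stage test used edgeR's quasi-likelihood F-test over all 6 libraries with genotype in the model, adjusted by Benjamini-Hochberg over 679 miRNAs. Folds are e13.5 over adult after TMM scaling, so positive values mean lower in adults. The log2 fold was 9.32 (SE 1.30, edgeR adjusted p = 0.00191) for miR-675-5p and 6.79 (SE 1.18, edgeR adjusted p = 0.00147) for miR-675-3p. It was 9.52 (SE 1.09, edgeR adjusted p = 0.000175) for miR-483-5p and 6.74 (SE 0.63, edgeR adjusted p = 9.11e-05) for miR-483-3p. The fitted fold of miR-675-5p depends on the prior count, since adults had none. The floor given above is on library totals, so it is no bound on this TMM-scaled fold. Differences between stages were common: 57.7% of the tested miRNAs passed in either direction and 29.3% passed as higher at e13.5. However, miR-675-5p, miR-675-3p and miR-483-5p reached the filter on low counts only through the e13.5 libraries. Once tested they could hardly come out as lower at e13.5, so 4 of 4 against that share is no support. The 4 arms had a median log2 fold of 8.06, against −0.065 over all miRNAs tested. The filter favours a high median in the same way, so this contrast is no support either.

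The stage call for miR-675-5p varied among fits without the e13.5 knockout library. It did not pass when that library alone was left out, at a log2 fold of 8.58 (edgeR). With wild-type libraries only, which also lack it, miR-675-5p passed at 8.63. These fits hold 1 e13.5 library. Without the e13.5 wild type the log2 fold of miR-675-5p was 10.1. The fold of miR-483-5p was 7.83 without the e13.5 knockout, 10.8 without adult wild-type replicate 2 and 13.9 without the e13.5 wild type, and that of miR-483-3p was 5.67 without the e13.5 knockout and 7.69 without the e13.5 wild type. The fold of miR-675-3p was 8.90 without adult wild-type replicate 1, which held its 3 adult counts. Other scalings moved the median of all miRNAs to 0.716 and 0.926 (log2), and the arms lay at 7.48 or above in both. Stage cannot be told apart from dissection, cell isolation or library batch, which the labels do not give. In bulk libraries fewer cells of a type and less RNA per cell cannot be told apart.

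Summed liver, epithelial, and smooth muscle and fibroblast markers were lower in every adult library than in either e13.5 library, as the 4 arms were. Leukocyte, skeletal muscle and cardiomyocyte sums were higher. At e13.5 the cardiomyocyte sum was mostly miR-1a-3p, at 94850 of 98600 CPM in the knockout and 140000 of 146200 CPM in the wild type. That arm stood at 81490 CPM in adult knockout replicate 1, below both e13.5 libraries, and at 145300 to 256300 CPM in the other adults. Its stage difference did not pass (log2 fold −1.54), whereas miR-133a-3p was higher in adults (log2 fold −7.54). The smooth muscle and fibroblast sum was mostly miR-143-3p, at 210700 of 214900 CPM in the e13.5 knockout and 349700 of 355800 CPM in the e13.5 wild type. The stage difference of miR-143-3p did not pass (log2 fold 0.60). Both miR-145a arms of that list were higher in adults (log2 folds −3.26 and −3.71), so its arms did not move together. miR-122-5p, the main liver miRNA, stood at 0.417 to 3.83 CPM in adults, 192 CPM in the e13.5 knockout and 45.1 CPM in the e13.5 wild type. The 2 liver arms summed to 192 and 45.2 CPM in these e13.5 libraries. The epithelial list, with 12 arms of which 9 and 10 were detected in the e13.5 knockout and wild type, held 0.0025 to 0.00554% of counts in adults, 0.212% in the e13.5 knockout and 0.150% in the e13.5 wild type. miR-429-5p of that list was at 0 in all libraries. Neuronal markers held 0.0895 to 0.160% in adults, 0.260% in the e13.5 knockout and 0.126% in the e13.5 wild type. That wild-type value lay within the adult range. Skeletal muscle markers, read from miR-206-3p with miR-206-5p at 0, stood at 11.1 to 36.4 CPM in adults, 10.1 CPM in the e13.5 knockout and 2.46 CPM in the e13.5 wild type. Leukocyte markers were lower at e13.5, at 0.177 to 0.281% in adults, 0.0192% in the e13.5 knockout and 0.0131% in the e13.5 wild type. The part of these cells in the stage difference of miR-675 and miR-483 was not tested.

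Other imprinted loci that carry miRNAs showed a stage difference in the same direction. The list held miR-335 of Mest, miR-296 and miR-298 of Gnas, and hairpins of the maternally expressed Dlk1-Dio3 cluster. Of its 76 arms 64 were tested: 50 were lower in adults, 1 was higher and 13 did not pass (edgeR), with a median log2 fold of 4.78. Over all miRNAs tested 29.3% passed as lower in adults and 28.4% as higher. The adult fit could test 48 arms of the list, so some of the 64 entered the stage test only through the e13.5 libraries. Such arms could hardly pass as higher in adults, so the filter fixes part of these counts. In the Dlk1-Dio3 group alone, 47 of 59 tested arms were lower in adults and 0 were higher, at a median of 4.78.

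The 3 most abundant arms of the list by mean CPM were all from Dlk1-Dio3. miR-541-5p had 17.2 and 11.6 CPM in adult knockouts and 30.8 and 23.9 CPM in adult wild types, against 9627 and 4250 CPM in the e13.5 knockout and wild type. Its log2 fold was 7.32 (SE 0.49, edgeR adjusted p = 5.67e-05), between the values of miR-483-3p and miR-483-5p. miR-127-3p, which lies antisense to the retrotransposon-derived gene Rtl1, had a log2 fold of 4.78, and miR-379-5p one of 5.54.

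The paternally expressed gene Mest gave a different picture for each arm of miR-335. miR-335-3p was lower in adults (log2 fold 5.55, SE 0.45, edgeR adjusted p = 9.11e-05), whereas miR-335-5p did not pass at 1.02 (SE 0.68, edgeR adjusted p = 0.217). At Gnas the arms of miR-296 moved opposite ways. The log2 fold of miR-296-3p was 7.81 (SE 0.89, edgeR adjusted p = 0.000175) and miR-296-5p, the 1 arm that was higher in adults, one of −4.73 (SE 0.995, edgeR adjusted p = 0.00383). miR-298-5p had a log2 fold of 7.03.

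**Figure D2:**
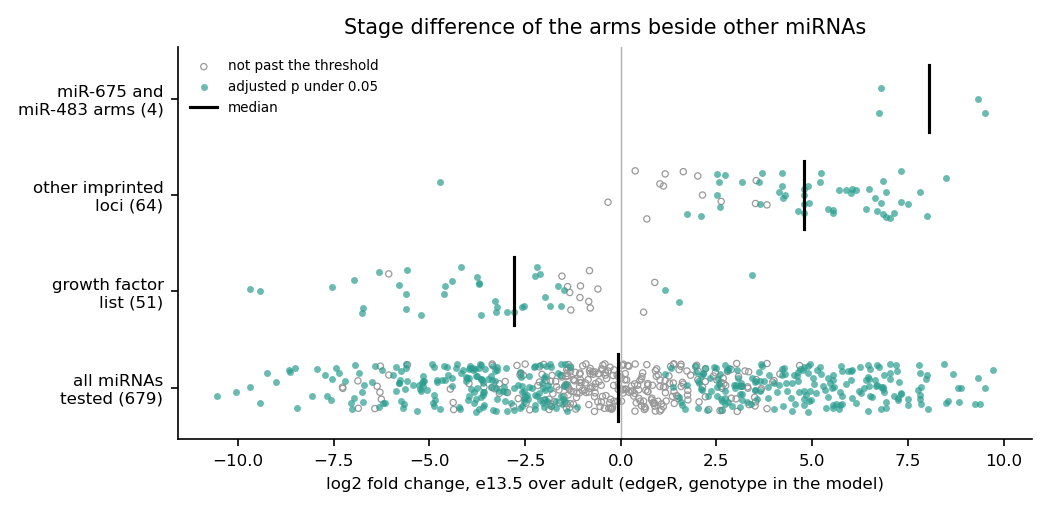
Log2 fold of e13.5 over adult for the 4 arms, other imprinted loci, the growth factor list and all 679 tested miRNAs. Filled points passed at an adjusted p under 0.05 (edgeR), open points did not, and black lines are medians. The 4 arms lie between 6.74 and 9.52, above the medians of 4.78 for the imprinted list and −2.78 for the growth factor list. All of them but miR-483-3p reached the test only through the e13.5 libraries, so their place is no support.

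Arms of hairpins with a miRNA known to act on mRNAs of insulin-like growth factor signalling mostly differed in the opposite direction. The listed hairpins had all their arms counted, whether or not each arm is known to act there. This list held let-7, miR-1a, miR-133a, miR-378a, miR-143, miR-145a, miR-29, miR-99a, miR-100, miR-223, miR-206, miR-486a, miR-21a, miR-26a and miR-98. Of 51 tested arms 35 were higher in adults, 3 were lower and 13 did not pass (edgeR), with a median log2 fold of −2.78. Over all miRNAs tested 28.4% passed as higher in adults. miR-133a-3p, which acts in muscle differentiation, had 182900 and 121600 CPM in adult knockouts and 152700 and 165800 CPM in adult wild types, against 1479 and 1925 CPM in the e13.5 knockout and wild type. Its log2 fold was −7.54 (SE 0.64, edgeR adjusted p = 9.11e-05). The 2 other most abundant arms did not pass: the log2 fold of miR-143-3p was 0.60 (SE 0.55, edgeR adjusted p = 0.370) and that of miR-1a-3p, which represses Igf1 in rodent muscle, was −1.54 (SE 0.76, edgeR adjusted p = 0.106).

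Across the 6 libraries the pattern of miR-483-3p was most like those of miR-669c-5p, miR-541-5p and miR-409-3p, with Pearson's r of 0.995, 0.995 and 0.994 on log2 TMM-scaled CPM. miR-675-5p, the more abundant arm of its hairpin by mean CPM, was most like miR-3080-5p, miR-1187 and miR-6539, at an r of 0.999 each. Those 3 had 0 counts in every adult library, as miR-675-5p did. Among the other miRNAs compared, 78 exceeded an r of 0.95 with miR-483-3p and 68 with miR-675-5p. All these points share the 2 embryonic libraries as their high values.

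In adults only miR-483-3p had enough counts to be tested between genotypes. It had 21 and 11 counts (1.04 ± 0.593 CPM, SD, n = 2) in the knockouts and 46 and 47 counts (2.68 ± 0.165 CPM, SD, n = 2) in the wild types. The knockout libraries lay below both wild types, and the ratio over summed counts was 0.374 (95% counting interval 0.242 to 0.564). The difference did not pass the test over the 4 adult libraries (log2 fold −1.24, SE 0.80, edgeR adjusted p = 0.999), in which 0.735% of 544 miRNAs passed.

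miR-483-5p had 0 counts in both adult knockouts, against 7 and 17 in the wild types, and was at least 7.36-fold lower in knockouts with the floor of 3 counts over the group. It was too rare for the filter on low counts. In a fit without that filter its edgeR adjusted p was 0.996. Cardiomyocyte markers held 28.2 and 39.5% of counts in the adult knockouts and 31.6 and 33.4% in the adult wild types, so their ranges overlapped. miR-675 could not be compared in adults, where 3 counts were found in all. Of the other imprinted arms 48 were tested in adults and 0 passed (edgeR), with a median log2 fold of knockout over wild type of −0.42 and 11 positive values, against a median of 0.078 over all miRNAs tested. Of the growth factor list 51 were tested and 0 passed, with a median of 0.189 and 41 positive values. In each of these lists 0 arms had an unadjusted p below 0.05 in adults. Over all 544 miRNAs tested, 307 values were positive and only 16 had an unadjusted p below 0.05.

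At e13.5 the arms of miR-675 went opposite ways between the genotypes, with 1 library each and therefore no test. miR-675-5p was 5.39 times higher in the knockout than in the wild-type library (95% counting interval 3.60 to 8.16), while miR-675-3p stood at 0.312 times the wild-type level (0.152 to 0.579). miR-483-3p was 2.78 times higher in the knockout library (2.59 to 2.97) and miR-483-5p 1.39 times (1.28 to 1.496). With a prior count of 2, 2 of the 4 arms were at least 2-fold higher and 1 was at least 2-fold lower. Of the 565 miRNAs that reached 10 counts in 1 of these libraries or both, 30.6% met the same bound upwards and 13.6% downwards. These counts are on library totals, and the split over all miRNAs turned with the scaling. Under TMM scaling 17.3% were at least 2-fold higher and 31.3% lower, and under median-of-ratios scaling 19.5% and 28.0%. With either of these, 1 of the 4 arms was at least 2-fold higher and 1 lower.

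The size of these ratios depended on the scaling, and for miR-483-5p the direction did too. Under TMM scaling the knockout to wild-type ratio was 3.09 for miR-675-5p, 0.179 for miR-675-3p, 0.794 for miR-483-5p and 1.59 for miR-483-3p. Under median-of-ratios scaling they were 3.41, 0.197, 0.876 and 1.76. With the arms summed by hairpin, miR-675 had a ratio of 1.62 with library totals and 0.929 with TMM (0.699 to 1.23), and miR-483 of 2.02 and 1.16. The opposite directions of miR-675-5p and miR-675-3p held under all 3 scalings.

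**Figure D3:**
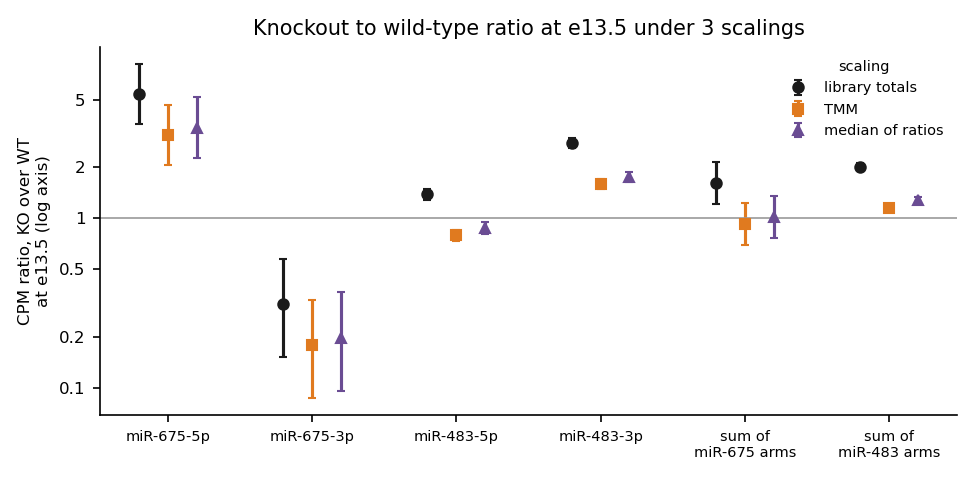
Knockout to wild-type CPM ratio at e13.5 on a log axis, for each arm and for the arms summed by hairpin, under library totals, TMM and median-of-ratios scaling. Bars are exact 95% counting intervals and each genotype is 1 library. miR-675-5p lies above 1 and miR-675-3p below 1 under all 3 scalings, while miR-483-5p crosses 1.

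The division of reads between arms does not depend on scaling. miR-675-3p made up 14.3% of the arm counts of its hairpin in the e13.5 knockout library (11 of 77, exact 95% interval 7.35 to 24.1) and 74.2% in the e13.5 wild-type library (118 of 159, 66.7 to 80.8). By counts of the annotated arms alone, the major arm was the 5p arm in the knockout and the 3p arm in the wild type. Hairpin counts outside both arms, 49 of 126 in the knockout and 34 of 193 in the wild type, are left out. Their part in the difference in arm share was not tested. With 1 library a genotype the shares compare libraries, not genotypes. For miR-483 the 3p share was 62.5% in the e13.5 knockout (60.6 to 64.4) and 45.4% in the e13.5 wild type (43.9 to 46.95), so here the 3p arm had the larger share in the knockout.

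**Figure D4:**
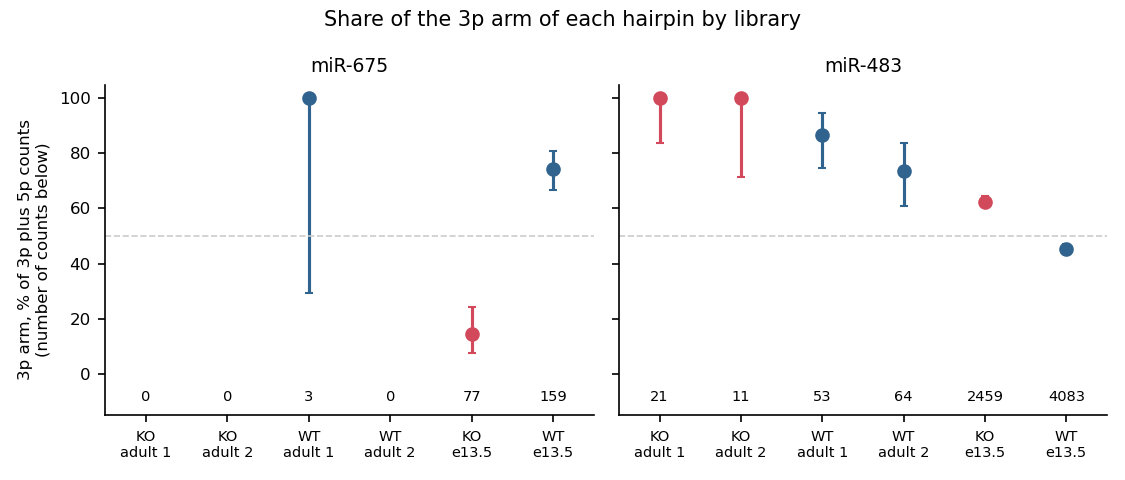
Share of the 3p arm among the 3p and 5p counts of each hairpin by library, in percent, with exact 95% binomial intervals and the number of arm counts printed below each point. The miR-675 share is 14.3% in the knockout and 74.2% in the wild-type library at e13.5. The miR-483 share is 73.4% or more in all adult libraries.

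The 3p share was compared over 189 hairpin entries with both arms listed and at least 50 arm counts in each e13.5 library. It differed between the 2 libraries by a median of 0.909 percentage points. A few entries hold the same or nearly the same reads, such as miR-486a and miR-486b, and each was counted. The difference of −59.9 points for miR-675 ranked first and was the only one past 50 points. The 17.1 points of miR-483 ranked 23rd, and 20 hairpins differed by more than 20 points. miR-675 was a sparsely read hairpin, with 77 and 159 arm counts against medians of 718 and 1344. Among the other 22 hairpins with at most 200 arm counts in each library, the largest difference was 35.5 points and the median 2.77. The major arm differed between the libraries for 13 of the 189, and the 3p share was higher in the knockout library for 79 and lower for 84.

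**Figure D5:**
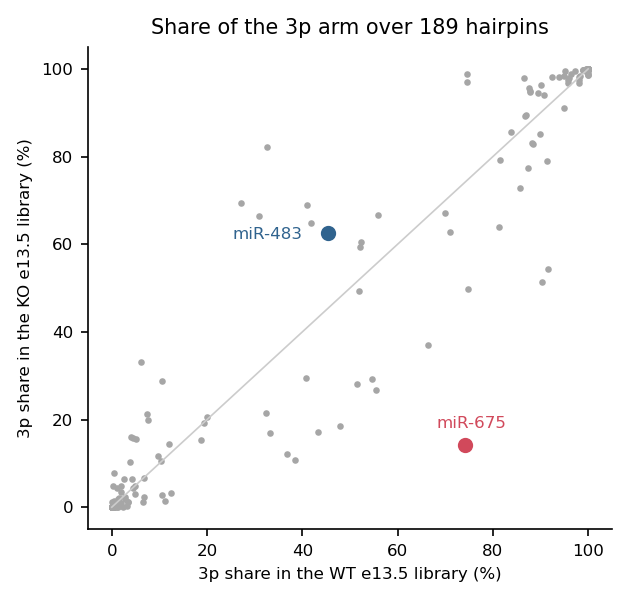
Share of the 3p arm in the e13.5 knockout library against that in the e13.5 wild-type library, in percent, for 189 hairpins. The line marks equal shares. miR-675 lies farthest from the line, at a difference of −59.9 points, and miR-483 lies above it by 17.1 points.

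miR-675 also had many reads assigned to the hairpin but to neither annotated arm. Such reads are not counted in the arm shares and ranks above. They made up 38.9% of hairpin counts in the e13.5 knockout (49 of 126, exact 95% interval 30.3 to 47.98) and 17.6% in the e13.5 wild type (34 of 193, 12.5 to 23.7). This share had rank 3 in each library among the hairpins just described (187 and 188 of them with hairpin counts), whose median was 0.0% in both. For miR-483 it was 0 of 2459 counts in the knockout and 2 of 4085 in the wild type. In the hairpin sequence printed above, 12 bases lie between the arms of Mir675 and 15 between those of Mir483.

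Erythroid markers differed between the 2 embryonic libraries, and all 5 of their arms were detected in each. They held 1.43% of counts in the e13.5 knockout and 0.0748% in the e13.5 wild type. That sum was carried by miR-451a and miR-486a. miR-451a stood at 7547 of 14320 CPM in the knockout and 378 of 748 CPM in the wild type, and miR-486a had 17920 and 3037 arm counts. miR-144, the remaining hairpin of the list, had only 181 and 277 arm counts, with a 3p share of 49.7 and 74.7%. The liver marker miR-122-5p, at 192 and 45.1 CPM, was also higher in the knockout library. Summed epithelial markers were higher there on library totals only, at 0.212 against 0.150%. The TMM factors of these libraries, 2.17 and 1.24, turn that direction. Their part in the knockout to wild-type differences of miR-675 and miR-483 was not tested.

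In adults, reads of miR-483 came largely from the 3p arm. Its share was 21 of 21 and 11 of 11 arm counts in the knockouts, and 86.8% (46 of 53) and 73.4% (47 of 64) in the wild types. Summed over adults it was 83.9% (125 of 149, exact 95% interval 77.0 to 89.4), against 51.8% over both e13.5 libraries. Of 173 hairpins that also had at least 50 arm counts in adults, the median absolute difference in 3p share between stages was 3.37 points. That of miR-483, −32.1 points as e13.5 minus adult, ranked 28th. Without adult wild-type replicate 2 the adult share was 91.8%. Since the 5p arm was at 0 in the adult knockouts, no test was made of this share.

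The balance between the H19 and Igf2 products was similar in both embryonic libraries. miR-675 made up 3.04% of the summed arm counts of both hairpins in the e13.5 knockout (95% interval 2.40 to 3.78) and 3.75% in the e13.5 wild type (3.197 to 4.36). In adults the share was 3 of 56 counts in wild-type replicate 1 and 0 of 21, 11 and 64 in the others, or 1.34% ± 2.68 (SD, n = 4), against 3.39% ± 0.503 (SD, n = 2) at e13.5. An exact two-sided permutation test over the 6 libraries gave p = 0.4, where 15 splits allow no p below 0.0667. The difference of 2.05 percentage points was 3.39 without adult wild-type replicate 1 (exact permutation p = 0.1, the smallest that 10 splits allow) and 3.35 with hairpin counts.

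Over both stages, knockout and wild type did not differ past the threshold for any of the 4 arms (edgeR, stage in the model). The log2 fold of knockout over wild type was 1.42 (SE 1.31) for miR-675-5p, −2.67 (SE 1.26) for miR-675-3p, −2.18 (SE 1.06) for miR-483-5p and −0.60 (SE 0.57) for miR-483-3p, each at an edgeR adjusted p of 0.989. In that fit 0.736% of 679 miRNAs passed. The fold of miR-483-5p was −6.51 without the e13.5 knockout (edgeR adjusted p = 0.192) and −6.38 without the e13.5 wild type (edgeR adjusted p = 0.176), and −1.27 and −1.54 without adult knockout replicates 1 and 2. That of miR-483-3p was −1.34 and −1.33 without the e13.5 knockout and wild type. The miR-675 values rest on the embryonic libraries, since adults held 3 counts.

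Whether the genotype difference itself changed with stage was tested on 4 group means, with the spread taken from adult replicates. By edgeR 0.0% of the 769 miRNAs tested passed, although 46 had an unadjusted p below 0.05. DESeq2 called 4 and limma called 0. miR-483-3p had an interaction of 1.99 (log2, SE 0.95, edgeR adjusted p = 0.853), positive because its knockout to wild-type fold was higher at e13.5 than in adults. miR-483-5p had 6.02 (SE 1.82, edgeR adjusted p = 0.741), a value that depends on the prior count because the adult knockouts were at 0. Without adult knockout replicate 1 its edgeR adjusted p was 0.0268, and without replicate 2 it was 0.0183, in fits whose spread comes from the adult wild types alone. Fitted interactions of the miR-675 arms are not given, since these had 0 counts in the adult knockouts.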

How the data were processed

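For the 6 libraries the authors deposited raw counts, whole and not normalised, with hairpins and mature miRNAs as separate features. Per the labels' protocols, TRIZOL RNA was treated with DNase and made into libraries with the NEXTFLEX small RNA kit. Per the submitters' processing notes the genome build was mm10. The sources used here name no aligner, counting tool, trimming or mismatch rule. Of 3208 features 1974 were mature, and 22 whose counts agreed within 1% with another were merged, which left 1952 for fitting, all 4 arms among them.

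Tests used edgeR 4.0.16 in R 4.3.3 (glmQLFit, glmQLFTest, TMM, filterByExpr with a minimum count of 10, Benjamini-Hochberg adjusted p of 0.05, two-sided). The adult fit used the 4 adult libraries, the others all 6. The filter of the stage and genotype fits came from their additive design. DESeq2 1.42.0, limma 3.58.1 (voom), other scalings, no filter, hairpin counts, unmerged counts, a replicate block and leaving out each library were run as alternatives. Ratios used summed counts with exact conditional binomial intervals. Named miRNAs were the 4 arms, the 3 most abundant arms of each list, the Mest and Gnas arms (added after their values were seen) and the 3 most similar patterns. Members and lists were chosen with earlier results of these data known.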

Additional observations from a re-analysis of the deposited data

How the results depend on the processing

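Of 59 stage values of the 4 arms under alternatives, 58 stayed positive and past the threshold; miR-675-5p without the e13.5 knockout did not (8.58). Without single libraries its log2 fold ranged from 8.58 to 10.1, that of miR-675-3p from 6.52 to 8.90, that of miR-483-5p from 7.83 to 13.9 and that of miR-483-3p from 5.67 to 7.69. Without the e13.5 wild type miR-675-3p had too few counts to be tested. E13.5 ratios of knockout over wild type moved from library totals to TMM and median-of-ratios scaling: miR-675-5p to 3.09 and 3.41, miR-483-3p to 1.59 and 1.76, and miR-483-5p to 0.794 and 0.876. With hairpin counts the genotype fold of miR-675-5p over both stages was −0.78. Its fold without either e13.5 library could not be estimated, and fitted interactions of the miR-675 arms are not given because the adult knockouts held 0 counts. The interaction of miR-483-5p ranged from 4.995 to 6.39 without single adult libraries. The adult 3p share of miR-483 ranged from 81.25 to 91.8% without single libraries, highest without wild-type replicate 2. The causes were not tested, apart from fewer samples where libraries were left out.

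Counts of miRNAs past the threshold changed by more than 1.5 times in these cases. The stage count was 392, and 261 to 381 without single libraries, lowest without the e13.5 knockout. The adult count was 4, with 9 unfiltered, 0 by limma and 5 to 47 without single libraries (35 and 47 without knockout replicates 1 and 2). The genotype count over both stages was 5, with 3 from hairpins and 3 to 5 without single libraries (3 without either adult wild type). The interaction count was 0, with 1 on library totals, 2 unfiltered, 4 by DESeq2 and 0 to 87 without single libraries (87 and 40 without adult knockout replicates 1 and 2).

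With replicate number as a replicate block no call of the 4 arms changed. The log2 stage fold of miR-675-3p was then 7.69, and 398 miRNAs passed between stages. Same-numbered adult libraries deviated with a correlation of −0.0083 over 423 miRNAs. The labels give no batch, and this value cannot tell whether same-numbered libraries share one. Low counts limit what can be said of miR-675 in adults, where 3 counts were found although these libraries were deeper than those of e13.5.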
